A study of Homo sapiens with 3 samples.

Results

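L2 repeat clusters are the RNA stretches recovered with MATR3 whose genomic position the deposited annotation assigns to a repeat named L2, L2a, L2b, L2c or L2d. They were selected by that annotation and name alone, with no measured value. They numbered 1299 of the 115227 clusters in 3 libraries, with WT replicate 1 giving 1007 of its 87230, WT replicate 2 giving 289 of its 27155 and the knockout (KO) 3 of its 842. PAR-CLIP recovers, by immunoprecipitation, the RNA that UV light has crosslinked to a protein, and crosslinked 4-thiouridine is read as C, so that a T-to-C change marks a contact. HAP1 is a near-haploid human line derived from the leukaemia line KBM-7. The WT groups were wild-type HAP1 cells and the KO was 1 HAP1 line with a knockout of MATR3, a nuclear RNA-binding protein. Cells of both genotypes were bought from a commercial source and grown in the same medium. Both went through the same immunoprecipitation on anti-FLAG beads, for which no label records a tag on MATR3. No label says whether the WT replicates were separate cultures.

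L2, or LINE-2, is an old family of long interspersed elements that once copied itself through an RNA intermediate in the ancestors of mammals. Its copies in the human genome are no longer mobile, have decayed into fragments and lie in introns and between genes, so most of their RNA is thought to be made as part of longer nuclear transcripts. MATR3 carries a pair of RNA recognition motifs and is known to bind pyrimidine-rich RNA, mainly in introns.

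Sequences of single sites are shown first. The 6 L2 sites below had overlapping clusters in both WT libraries and the highest geometric mean of reads. They are given as read in WT replicate 2, 5′ to 3′ on the strand of the RNA, in hg38, with the longest unbroken run of C and T in capitals.
L2, chr10:94603755-94603790, plus strand: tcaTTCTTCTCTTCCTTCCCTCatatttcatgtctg
L2, chr10:94603366-94603397, plus strand: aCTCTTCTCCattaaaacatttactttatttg
L2a, chr5:36875205-36875238, minus strand: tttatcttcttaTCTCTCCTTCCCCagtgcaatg
L2c, chr6:132819880-132819907, plus strand: ataTCTCCTactcattcttcaaaactca
L2c, chr1:41035662-41035695, plus strand: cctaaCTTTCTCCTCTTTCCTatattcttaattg
L2b, chr7:127363014-127363048, minus strand: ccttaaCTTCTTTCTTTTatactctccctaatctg
Every cluster has a longest C and T run, so the capitals mark its place and are not themselves a result. The median length of this run over all clusters was 8 nt in both WT libraries. Of the 6, 5 end in G, the base after which RNase T1 cuts, as did 94.4% of all WT replicate 2 clusters.

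The label "intergenic" fits only part of these clusters. By the spans of genes in RefSeq, which were compared without strand, 589 of 1007 L2 clusters of WT replicate 1 (58.5%, 95% Wilson interval 55.4 to 61.5%) lay inside a gene. In WT replicate 2 it was 155 of 289 (53.6%, 47.9 to 59.3%), and in KO 2 of 3. Protein-coding genes held 390, 96 and 1 of them. The other repeat clusters lay inside a gene in 52.4% and 48.5% of cases in the WT libraries. The deposited annotation therefore put a cluster in the repeat class although a RefSeq gene, on one strand or the other, spans its position.

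More than 50% of the repeat clusters in WT were L2 when every cluster was counted. It held 1007 of 1909 repeat clusters in WT replicate 1 (52.8%, 50.5 to 55.0%) and 289 of 526 in WT replicate 2 (54.9%, 50.7 to 59.1%). Their average was 53.8 ± 1.55% (SD, n = 2). With only 1 repeat cluster kept per 100 kb window and strand, the shares were 47.5% and 50.6%. The majority was thus lost in WT replicate 1 when neighbouring clusters were not counted separately. The rest of the repeat clusters were spread over many names, since 365 repeat names occurred in WT replicate 1 and 154 in WT replicate 2. In KO, L2 held 3 of 35 repeat clusters (8.57%, 2.96 to 22.4%), and this interval lay below those of both WT libraries. By reads, L2 held 59.4%, 59.8% and 7.57% of the repeat reads of the 3 libraries, in the same order.

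Against the whole library the KO difference was less clear. Of all clusters of WT replicate 1, 1.15% were L2 (1.09 to 1.23%). The share was 1.06% for WT replicate 2 (0.949 to 1.19%) and 0.356% for KO (0.121 to 1.04%). At the WT shares a library of 842 clusters would hold 9.72 or 8.96 L2 clusters, against the 3 counted. The KO interval overlapped that of WT replicate 2. Repeat clusters other than L2 went the other way, at 1.03%, 0.873% and 3.80% (2.70 to 5.32%) of the clusters. With 2 WT libraries and 1 KO library no permutation p below 0.33 is possible, so the genotypes were not tested. RNA levels were not analysed here, so more binding and more of the RNA cannot be told apart.

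Among the subfamilies L2a was the most frequent and L2b the rarest in both WT libraries. L2a gave 410 clusters in WT replicate 1 (40.7%, 37.7 to 43.8% of the L2 clusters) and 114 in WT replicate 2 (39.4%, 34.0 to 45.2%). L2c gave 246 (24.4%, 21.9 to 27.2%) and 71 (24.6%, 19.96 to 29.8%). The clusters named L2 with no letter numbered 231 (22.9%, 20.4 to 25.6%) and 71 (24.6%). L2b gave 120 (11.9%, 10.1 to 14.1%) and 33 (11.4%, 8.25 to 15.6%). L2c and L2 could not be separated in either library, whereas the intervals of L2a and L2b each stood clear of the rest. No cluster in any library was named L2d. The KO clusters were 2 of L2 and 1 of L2c. How much of the genome each subfamily covers was not analysed here, so these shares say nothing of preference.

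**Figure D1:**
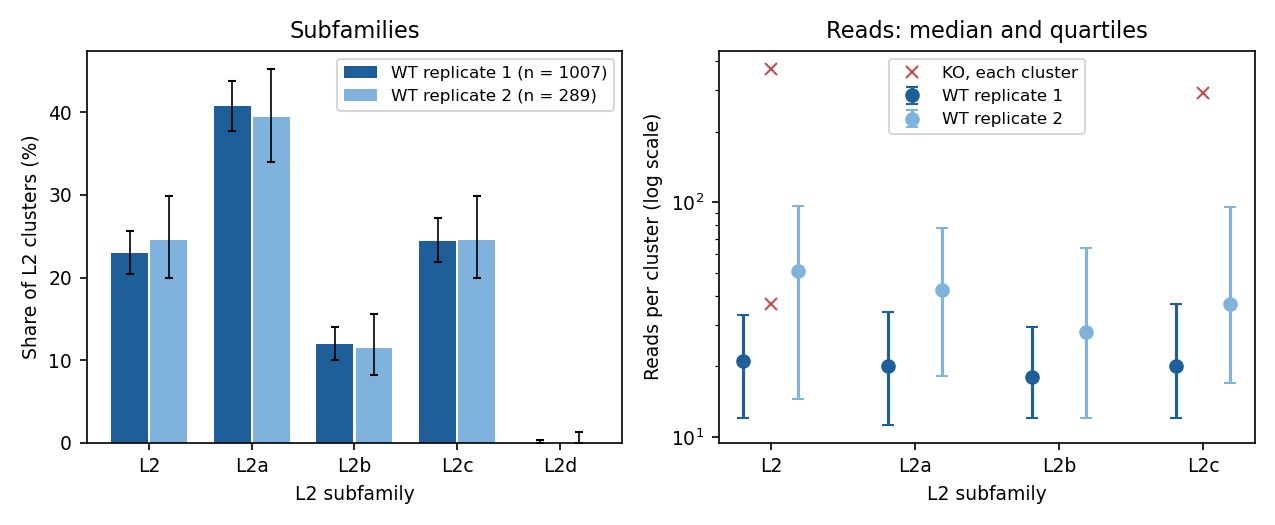
The left panel plots the share of L2 clusters (%) that each subfamily held in the WT libraries, with 95% Wilson intervals, and the right panel plots reads per cluster on a log scale as median and quartiles, with each KO cluster as a cross. L2a is highest in both WT libraries at 40.7% and 39.4%, L2d is at 0, and the 3 KO clusters hold 37, 372 and 292 reads.

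The L2 clusters were about as deep as the other clusters of their library. The median was 20 reads in WT replicate 1 (quartiles 12 and 34, highest 853) and 44 in WT replicate 2 (16 and 86, highest 632). The medians over all clusters were 20 and 39 reads. L2 clusters held 30229, 17560 and 701 reads in WT replicate 1, WT replicate 2 and KO. By subfamily the median ran from 18 reads (L2b) to 21 (L2) in WT replicate 1 and from 28 (L2b) to 51 (L2) in WT replicate 2. L2b was lowest in both libraries, but its quartiles overlapped those of every other subfamily. At least 100 reads were seen in 34 L2 clusters of WT replicate 1 (3.38%, against 3.62% of all clusters) and 56 of WT replicate 2 (19.4%, against 16.5%). The median length was 33 nt and 32 nt, the same as over all clusters. For each distinct read sequence, L2 clusters held 7.56 reads in WT replicate 1 but 17.2 in WT replicate 2 and 24.2 in KO. The reads of WT replicate 2 and KO were thus repeated more often per distinct sequence.

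L2 clusters were divided between the genomic strands much as all WT clusters were. The plus strand held 531 of 1007 L2 clusters in WT replicate 1 (52.7%, 49.6 to 55.8%) and 152 of 289 in WT replicate 2 (52.6%, 46.8 to 58.3%), against 53.0% and 53.5% of all clusters. Other repeat clusters of the WT libraries were on the plus strand in 60.4% and 61.6% of cases. All 3 KO L2 clusters were on the minus strand, as were 24 of the 32 other repeat clusters of KO. By subfamily the plus share ran from 50% (L2c) to 55.1% (L2a) in WT replicate 1 and from 42.4% (L2b, 33 clusters) to 57.7% (L2) in WT replicate 2, and the 95% interval of each included 50%, except that of L2a in WT replicate 1 (50.3 to 59.9%). The tables do not give the orientation of the repeat itself, so sense and antisense L2 RNA were not separated. L2 clusters lay on 23 chromosomes in each WT library.

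The bases of the L2 clusters were richer in C than those of other clusters. C made up 33.0% of the L2 bases in WT replicate 1 and 31.6% in WT replicate 2. The intronic clusters had 27.7% and 26.8%, so that L2 was higher by 5.26 and 4.77 percentage points (mean 5.02 ± 0.349, SD, n = 2). Over repeat clusters other than L2 the excess was 3.30 and 2.95 points (3.12 ± 0.248). Over MIR, the old short interspersed element that depended on L2 for its copying, it was 6.09 and 7.72 points, from only 96 and 27 MIR clusters. In each case the excess was larger than the spread between the WT libraries.

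T moved the other way against introns. L2 bases were 37.3% and 37.9% T, and the intronic clusters 40.4% and 42.1%, a difference of -3.08 and -4.17 points. G was scarce at 8.26% and 9.15%, a difference from introns of -1.73 and -0.629 points. C and T together made up 70.3% and 69.5% of L2 bases, against 68.1% and 68.9% in introns, so the L2 clusters differed from intronic ones mainly in which pyrimidine they held. An unbroken C and T run of at least 10 nt occurred in 368 L2 clusters of WT replicate 1 (36.5%, 33.6 to 39.6%) and 105 of WT replicate 2 (36.3%, 31.0 to 42.0%). Introns had 34.9% and 35.1%, within those intervals. The subfamilies differed little, with C from 32.02% (L2) to 34.0% (L2a) in WT replicate 1 and from 30.8% (L2) to 33.3% (L2b) in WT replicate 2, and the order was not the same in the WT libraries.

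**Figure D2:**
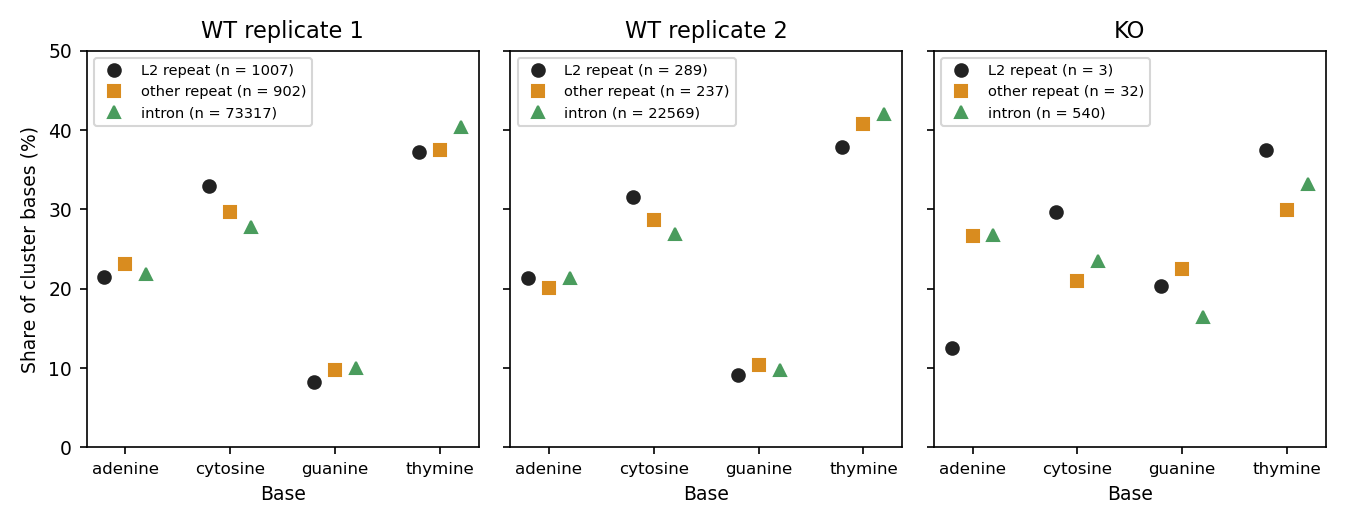
The share of cluster bases (%) that are adenine, cytosine, guanine or thymine is plotted for L2 repeat, other repeat and intronic clusters in each library, 1 point per class. In both WT panels the L2 point is the highest for cytosine, at 33.0% and 31.6%, and the lowest for guanine; in KO it rests on 3 clusters and stands at 20.3% guanine.

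The words most often held by L2 clusters were made only of C and T. The 10 most frequent pentamers in each WT library contained no other base, led by TCTTC in 290 clusters of WT replicate 1 (28.8%) and TTTCT in 86 of WT replicate 2 (29.8%). Words were searched on the strand of the RNA only, and they overlap one another. Of 5 pentamers set for description, TTCTT was held by 26.7% and 23.5% of L2 clusters, TTTCT by 26.0% and 29.8%, TCTTT by 24.9% and 25.3%, CTTTC by 22.5% and 21.1% and ATCTT by 14.8% and 15.6%. In introns TTCTT was held by 30.6% and 32.02% and TCTTT by 30.7% and 32.8%, above the L2 intervals in both libraries. TTTCT was held by 32.4% and 33.1% of intronic clusters, above the L2 interval in WT replicate 1 (23.4 to 28.8%) and inside it in WT replicate 2 (24.8 to 35.3%). CTTTC and ATCTT were held at 22.5% and 23.3%, and at 14.8% and 15.9%, inside the L2 intervals.

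The pentamers that set L2 clusters furthest from other repeat clusters held more C, or an A between pyrimidines. They were picked by that difference, so their values are a description. CTTCA was held by 19.8% and 19.7% of L2 clusters, 13.1% and 8.44% of other repeat clusters and 13.8% and 13.6% of intronic clusters. CATCT was held by 17.6% and 17.0% of L2 clusters against 12.3% and 10.1% of other repeat clusters, and TCCAT by 13.7% and 13.1% against 9.09% and 8.44%. In introns CATCT was held by 13.5% and 13.3% and TCCAT by 11.2% and 10.9%. TTTCC was held by 20.4% and 19.7%, which was near its 20.1% and 20.05% in introns. TCTTC was held by 28.8% and 26.6%, against 24.1% and 19.8% of other repeat clusters. Intronic clusters held it at 24.4% and 25.4%, the second inside the L2 interval of WT replicate 2 (21.9 to 32.0%). Another 5 pentamers were those furthest the other way. Of these, TTTTT was held by 8.14% and 10.0% of L2 clusters, 13.4% and 17.3% of other repeat clusters and 18.9% and 19.5% of intronic clusters. The word CTTTT was in 16.3% and 20.4% of L2 clusters against 22.4% and 25.7% of other repeat clusters. The word ATAAA was held by 3.38% and 2.77%, against 9.20% and 6.33%. For TATAA the shares were 2.28% and 2.42%, against 6.21% and 5.91%. In introns CTTTT was held by 25.9% and 27.2%, ATAAA by 4.79% and 4.02% and TATAA by 4.87% and 4.34%. TCTTT, named above, stood at 24.9% and 25.3% against 29.5% and 31.6%.

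Some longer words recurred at separate places. Among words of 8 nt with a base other than C or T, TCATTCTT was held by 29 WT L2 clusters, and ATTCTTCC and CATTCTTC by 24 each. TCCATTCT followed with 23 and TCTTCATT with 22. TCATTCTT came from 26 separate places, so these were not repeated counts of 1 site, and its reverse complement was in none of the L2 clusters. It was held by 2.28% and 2.08% of L2 clusters, 1.11% and 0.422% of other repeat clusters, and 1.28% and 1.40% of intronic clusters. The HELLS site shown first above, which had the most reads there in WT replicate 2 but not in WT replicate 1, begins with this word. Most L2 clusters held none of these words, and each word is rare in every class. The words were picked as those in the most L2 clusters, which by itself favours a higher L2 share. TCTTCATT alone among them was lower in L2 clusters of WT replicate 2, at 1.38%. There it was held by 2.11% of other repeat clusters and 1.44% of intronic clusters.

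T-to-C conversion in L2 clusters was close to that elsewhere. Of the T positions read, 8.75% were converted in WT replicate 1 and 7.95% in WT replicate 2, a mean of 8.35 ± 0.568% (SD, n = 2). Other repeat clusters had 9.13% and 8.19%, and introns 8.03% and 7.77%. L2 thus lay between them in both libraries, by differences of about the size of the spread between libraries. The 3 KO clusters had 4.28%. The median share of reads with a change was 94.4% and 97.2% per L2 cluster. An L2 cluster had 2.92 and 2.50 converted positions on average, against 2.44 and 2.22 in other repeat clusters and 2.999 and 2.38 in introns. Exactly 2 positions, the fewest listed for any cluster, were converted in 61.4% and 73.4% of L2 clusters, and the most in 1 cluster was 17 and 10. The clusters as listed are thus already selected on conversion.

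The last base of the cluster sequence was G in 740 of 1007 L2 clusters of WT replicate 1 (73.5%, 70.7 to 76.1%) and 273 of 289 of WT replicate 2 (94.5%, 91.2 to 96.6%). The shares over all clusters were 73.5% and 94.4%. This end base, which RNase T1 leaves, therefore differed between the WT libraries by far more than between L2 and other clusters.

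Sharing of L2 clusters between the WT libraries was as high as in the whole library and higher than in other repeats. A cluster counted as shared when 1 nt or more of it, strand included, was covered by a cluster of the other library. Of the 289 L2 clusters of WT replicate 2, 54 were shared (18.7%, 14.6 to 23.6%), against 19.5% of all WT replicate 2 clusters and 18 of 237 other repeat clusters (7.59%, 4.86 to 11.7%). From the other side, 53 of 1007 L2 clusters of WT replicate 1 were shared (5.26%, 4.05 to 6.82%), against 6% of all clusters and 2.22% of other repeat clusters (1.44 to 3.40%). The L2 share was thus near the background, and its interval did not meet that of other repeats in either direction. These intervals make no allowance for clusters that lie close together.

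Sharing rose with reads. In WT replicate 2 it was 10 of 88 L2 clusters with 5 to 19 reads (11.4%, 6.29 to 19.7%), 26 of 145 with 20 to 99 (17.9%, 12.5 to 24.98%) and 18 of 56 with 100 or more (32.1%, 21.4 to 45.2%). Over all clusters it was 12.2%, 20.6% and 30.03% in the same classes, and in other repeat clusters 4.76%, 8.33% and 12.1%. Counted from WT replicate 1, the L2 shares were 2.99%, 6.37% and 23.5%, against 3.22%, 6.95% and 30.4% of all clusters. Other repeat clusters there had 1.14%, 2.79% and 22.2%, so that at 100 or more reads L2 (8 of 34) and other repeats (4 of 18) had nearly the same share, from few clusters. By subfamily 19.7% of L2, 20.2% of L2a, 12.1% of L2b (4 of 33) and 18.3% of L2c clusters were shared, with overlapping intervals. Of the 54 overlapping pairs, 53 joined L2 clusters of the same subfamily. The remaining partner had been assigned to a transcript of JMJD1C, a gene for a histone demethylase family member. The pair had the same first and last base in 15 cases and the same 3′ end in 32.

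**Figure D3:**
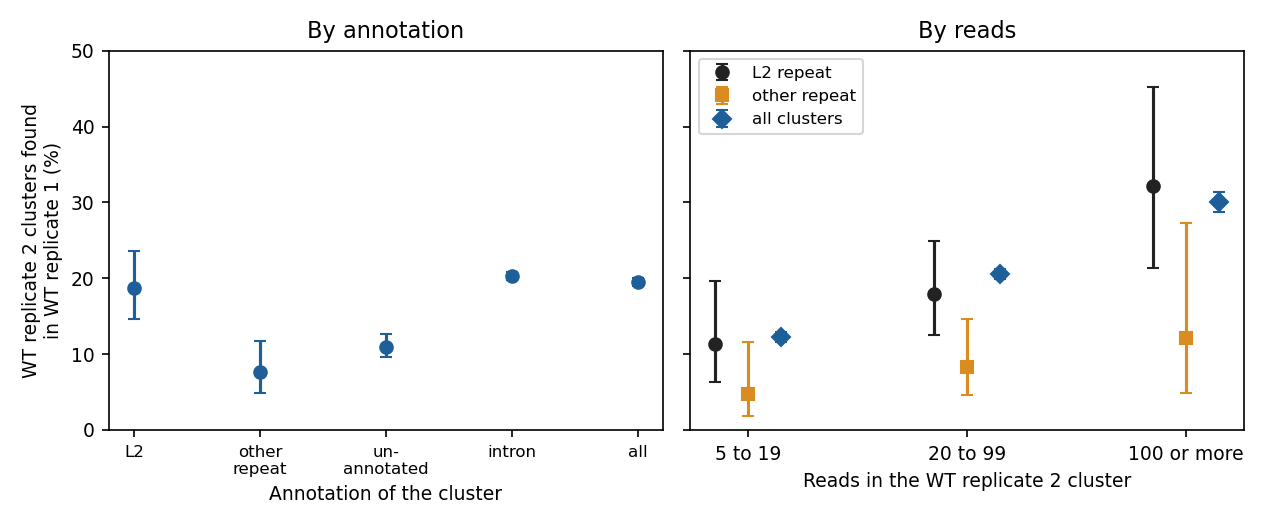
The share (%) of WT replicate 2 clusters that overlapped a WT replicate 1 cluster is plotted by annotation (left) and by reads in the cluster (right), with 95% Wilson intervals. L2 stands at 18.7% beside 19.5% for all clusters and 7.59% for other repeats, and L2 rises from 11.4% to 32.1% with reads.

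The most-read shared sites are described here with the RefSeq genes that they lie inside or between. The leading pair, on chromosome 10 inside HELLS, a gene for a chromatin remodelling helicase, had 664 reads in WT replicate 1 and 632 in WT replicate 2, with 64 and 25 distinct read sequences. The second pair, inside the same gene, had 853 and 192 reads. The L2a pair inside NIPBL-DT, a divergent transcript of the cohesin loader gene NIPBL, had 122 and 445 reads and identical ends. These pairs show the reads of 1 site leaning to either library.

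The L2c pair on chromosome 6, between RPS12 and HMGB1P13, had 290 and 128 reads, and here the WT replicate 1 cluster was 67 nt long against 28 nt. The L2c pair on chromosome 1 had 136 and 137 reads with identical ends, within the spans of SCMH1, a Polycomb group gene, and SLFNL1-AS1. The L2b pair inside ZNF800, a zinc finger gene, had 86 and 148 reads. The share of reads with a change ranged over these 6 pairs from 57.4% to 98.5%. None of the 6 had a KO cluster over it, though KO listed only 842 clusters in all.

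High read numbers did not ensure a partner, in L2 or elsewhere. Of all clusters with 100 or more reads, only 30.4% in WT replicate 1 and 30.03% in WT replicate 2 were shared. Of the 2 clusters with the most reads of each subfamily, 5 had no overlapping cluster in the other WT library, and they are shown for comparison with the shared sites.
L2a, chr1:247879779-247879811, plus strand: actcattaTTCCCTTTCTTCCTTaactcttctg
L2b, chr7:127363275-127363354, minus strand: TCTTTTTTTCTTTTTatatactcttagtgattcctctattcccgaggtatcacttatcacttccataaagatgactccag
L2b, chr5:134135538-134135577, minus strand: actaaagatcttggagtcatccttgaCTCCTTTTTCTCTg
L2c, chr17:54958997-54959031, minus strand: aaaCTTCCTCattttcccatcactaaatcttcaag
L2c, chr10:63487103-63487138, minus strand: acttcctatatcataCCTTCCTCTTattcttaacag
The L2a cluster, inside TRIM58, had 303 reads in WT replicate 2 from 8 distinct read sequences. The L2b clusters, inside ZNF800 and TCF7, had 220 reads in WT replicate 2 and 211 in WT replicate 1. The L2c clusters had 409 reads, within the spans of TOM1L1 and COX11, and 363 reads inside JMJD1C, both in WT replicate 1. All 5 end in G, as 5 of the 6 shared sites do.

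L2 clusters often lay close to others of the same subfamily. When L2 clusters of both WT libraries with the same chromosome, strand and subfamily were joined over gaps of at most 1000 nt, the 1296 clusters formed 867 runs. Of these, 205 runs held at least 2 clusters and together 634 clusters (48.9%), and 44 runs held at least 4, of which 33 drew on both libraries. Repeat clusters other than L2, joined by their own names in the same way, formed 1052 runs from 1139 clusters, and 63 of them held at least 2. Clusters of 1 run may come from the same element and transcript, so they may not be independent. The Wilson intervals count each cluster separately and make no allowance for this. Element boundaries were not analysed here. L2a had the most clusters per run at 1.63, followed by L2c at 1.45, L2 at 1.42 and L2b at 1.34, and 26 of the 44 runs with at least 4 clusters were L2a.

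Sharing was also counted by runs, which asks only for nearness and is therefore a looser measure than overlap. Of 238 runs with a WT replicate 2 cluster, 101 also held a WT replicate 1 cluster (42.4%, 36.3 to 48.8%), against 29 of 230 for other repeats (12.6%, 8.92 to 17.5%), which were also grouped less. Grouping itself was not particular to L2: another cluster of the same library and strand lay within 1000 nt of 52.7% and 34.3% of L2 clusters and of 54.6% and 34.8% of intronic clusters. For other repeat clusters it was 23.9% and 13.5%. L2 clusters were thus spaced like intronic ones.

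The run with the most clusters was an L2a run between TIMM10B and LOC644169, at chr11:6485373-6487236 on the plus strand. It spanned 1864 nt. WT replicate 1 had 12 clusters there, with 761 reads, and WT replicate 2 had 7, with 378 reads. The reads per cluster ranged from 8 to 136, and the clusters together covered 34.1% of the run. Of its clusters, 3 of WT replicate 2 overlapped one of WT replicate 1. The sequences below are its most-read cluster of each library and the last cluster, which begins at the same base in both.
WT replicate 1, 136 reads: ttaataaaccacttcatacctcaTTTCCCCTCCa
WT replicate 2, 118 reads: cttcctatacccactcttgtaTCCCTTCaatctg
WT replicate 1, 8 reads: CTTTCCCCCTTTatctacttctcattcttg
WT replicate 2, 38 reads: CTTTCCCCCTTTatctacttctcattc
These 3 places lie apart within the run.

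The second run, of L2 inside HELLS at chr10:94602883-94603790, was denser. It spanned 908 nt, of which 55.7% was covered. WT replicate 1 had 11 clusters there, with 1856 reads, and WT replicate 2 had 7, with 1196 reads. These were 6.14% and 6.81% of all L2 reads of the WT libraries. Here 5 of the 7 WT replicate 2 clusters overlapped a WT replicate 1 cluster. The reads were uneven, from 5 to 853 per cluster, and the 2 sites shown at the start held most of them.

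**Figure D4:**
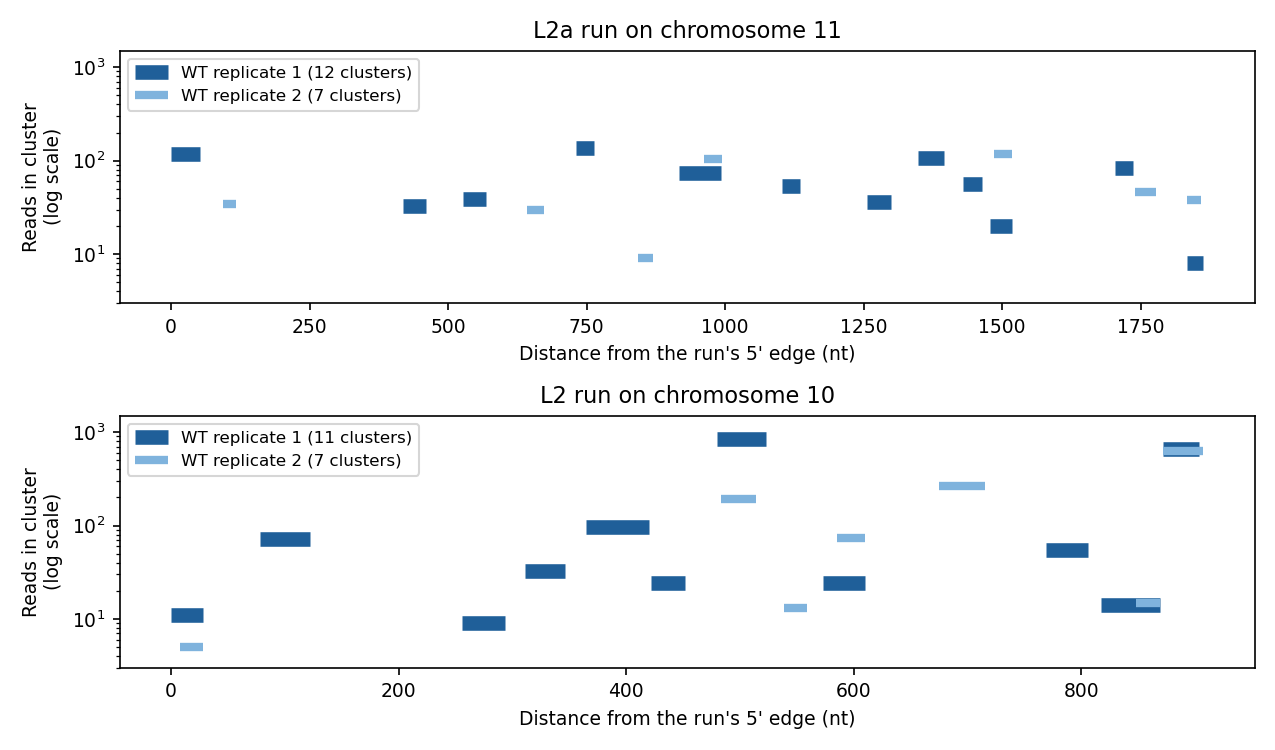
Each bar is 1 cluster of the runs with the most clusters, drawn from its first to its last base by distance from the 5′ edge of the run (nt) against its reads on a log scale, for WT replicate 1 (dark) and WT replicate 2 (light). The L2a run on chromosome 11 is spread over 1864 nt with 8 to 136 reads per cluster, and the L2 run on chromosome 10 has its highest bars at 853 and 664 reads.

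A further 14 L2 clusters lay in each of 2 other windows of 100 kb. On the plus strand of chromosome 1, 11 clusters of WT replicate 1 and 3 of WT replicate 2, all L2c, lay within the spans of SCMH1 and SLFNL1-AS1 with 467 and 261 reads. On the minus strand of the X chromosome, 7 clusters of each WT library lay between MIR222HG and LINC02595 with 239 and 215 reads, 11 of them L2c and 3 L2. That X window also held 35 and 13 clusters with no annotation, whereas the chromosome 1 window held 1 and 0. KO had no L2 cluster in any of these 4 windows. It had almost no cluster of any kind there, with 1 in the X window and none in the others.

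By gene, L2 clusters lay in the spans of 396 RefSeq genes in WT replicate 1 and 135 in WT replicate 2. The lists shared 77 genes, or 57.0% of the shorter list and 19.4% of the longer. The same overlap was not counted for other clusters, so whether it is high or low for these libraries cannot be told. HELLS led with 11 and 7 clusters.

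The 3 KO clusters are shown because they are all that the control yielded.
KO L2, chr1:58427641-58427679, minus strand: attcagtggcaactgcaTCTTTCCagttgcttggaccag
KO L2, chr13:70941661-70941706, minus strand: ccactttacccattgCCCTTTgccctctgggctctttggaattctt
KO L2c, chr15:78715678-78715720, minus strand: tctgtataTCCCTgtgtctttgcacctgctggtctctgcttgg
The first, inside DAB1, had 37 reads of 1 distinct sequence, and every read carried a change. The second had 372 reads, of which 94.6% carried a change. The third had 292 reads and 27.7%, and 2.88% and 4.15% of WT L2 clusters were likewise under 50%. In the KO library such clusters were more frequent, at 11.6% of all clusters and 31.25% of the other repeat clusters.

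The KO clusters held more G than the WT ones but a similar share of pyrimidines. G made up 20.3% of their 128 bases, against 8.26% and 9.15% in the WT libraries, and the KO library as a whole also stood at 17.9% against 10.1% and 9.99%. C and T together made up 67.2%, with T at 37.5% and C at 29.7%, against 70.3% and 69.5% in WT L2 clusters and 55.9% over all KO clusters. None held a C and T run of 10 nt, but in the KO library only 11.5% of all clusters and 4 of 32 other repeat clusters did. No WT L2 cluster overlapped a KO cluster, and the nearest WT cluster on the same strand was 6611 nt from a KO L2 cluster. Overlap with KO was not counted for other WT clusters, so this absence cannot be called particular to L2. With 3 clusters, the differences from WT carry no error estimate beyond the intervals given.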

How the data were processed

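Cluster tables of 2 WT and 1 KO library were used as deposited. Per the file headers, the deposited tables give, for each cluster, whole-number counts of reads, distinct read sequences, converted positions and converted and unconverted T events, none of them normalised. Deposited fraction columns give, per cluster, the converted part of its reads and the part that ends in G, and deposited score columns of the caller were not used. The submitters' processing notes name cutadapt 1.8.3, Bowtie 1.1.2 and the builds hg38 and GRCh38.p5; the cluster caller and its filters are not given in the sources used here. The authors listed clusters per library, not pooled, and the weakest had 5 reads and 2 converted positions.

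Members and lists were chosen with earlier results of these data known. The named clusters are those with the most reads per library, per subfamily, as WT pairs and in KO, with the windows of 100 kb holding the most. Base content pools all bases of a class. Intervals are 95% Wilson intervals over clusters and cover counting error only. They treat clusters as independent, so they are too narrow where neighbouring clusters come from the same element or transcript. WT values are also given as mean ± SD over 2 libraries. The libraries held 2668797, 1558995 and 224142 reads in clusters; total sequencing depth was not analysed here. MATR3 itself had 53, 26 and 0 clusters. RefSeq names come from GRCh38.p14 and served only to name genes around a cluster. Alternatives were read and position minima, 1 cluster per window, trimmed ends, other overlap rules and each WT library left out in turn. The software was Python 3.11.15, numpy 2.4.6, pandas 2.3.3, scipy 1.17.1 and matplotlib 3.10.9, and the counting steps were tested on simulated data.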

Additional observations from a re-analysis of the deposited data

How the results depend on the processing

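Of 62 alternative values for 11 results, 42 moved by less than the spread between the WT libraries or the interval of the share. The other 20 moved further. Where the WT libraries lay close together, even a small move was counted here, as for the plus-strand share. Other moves were large, such as that of the L2 share of repeat clusters from 53.8% to 65.5%. Among the 42 are the values with 1 WT library left out. Leaving out 1 of 2 libraries always moves a mean by less than their SD, so these values say nothing about stability. With at least 10 reads per cluster, the WT mean L2 share of repeat clusters was 55.7%, the L2c share 25.2% and the plus-strand share 52.9%. With at least 3 converted positions these were 65.5%, 23.1% and 52.8%, T was 39.4% and G 7.85% of bases, the median was 50.5 reads, conversion 7.74%, TTCTT 30.9% and the shared part of WT replicate 2 clusters 27.3%. With 1 cluster per window the L2 share was 49.0%, the L2a share 37.7% and the L2c share 23.9%. With 3 nt trimmed from each end, G was 7.17% and TTCTT 21.4%. Conversion as a median over clusters was 9.29%. Sharing was 5.26% when counted from WT replicate 1 and 10.0% with the same number of clusters from each library. Runs joined over 500 or 2000 nt, a choice made after seeing the data as was that of 1000 nt, were shared at 37.9% and 44.3%. The L2 share of KO repeat clusters stayed below both WT libraries in every setting. Only the read and position minima changed it, to 9.09% and 11.8%, and it was 8.57% in the rest. The L2 share of the whole library, where the KO difference was less clear, was not varied. The cause of these shifts was not tested. No paired analysis was possible because KO is a single library whose label carries no replicate number. The number of libraries and the 3 KO clusters limit the comparison of genotypes, and the fewer clusters of WT replicate 2 limit the overlap.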

Other observations

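Repeats related to L2 by name but outside the selection were few. The name L2-3_Crp was given to 11 clusters of WT replicate 1, holding 242 reads, to 5 of WT replicate 2, holding 383 reads, and to none of KO. L3 had 4, 1 and 1 clusters in WT replicate 1, WT replicate 2 and KO. The repeat names L2-1_AMi, L4_A_Mam, L4_B_Mam and L4_C_Mam each had at most 3 clusters in a library.

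The deposited column for the share of reads ending in G differed by strand. In L2 clusters its mean was 72.4% on the plus strand and 0.591% on the minus strand of WT replicate 1, and 93.5% and 1.35% in WT replicate 2. The deposited sequences of the same minus-strand clusters ended in G in 80.0% and 96.4% of cases. The same held over all clusters, with 1.62% and 1.79% in the column on the minus strand. The last base of each sequence was used in place of that column.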
